A study of Mus musculus with 10 samples.

Results

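The 37 genes described here encode the vacuolar proton pump (V-ATPase), proteins of the lysosome and the TFEB family factors that regulate them. They were picked by gene symbol from the authors' deposited table of 23337 genes, and all 37 symbols were found there. The rule uses no measured value, but the list was drawn up with earlier results of these data known. The series compared cardiomyocytes, whose contraction drives the heartbeat, from 2 groups of wild-type mice of 5 biological replicates each. Both groups received AAV9, an adeno-associated virus that infects heart muscle, at 5e+08 viral genomes per gram on postnatal day 1. Hearts of both groups were digested on postnatal day 14, and cells were purified by fluorescence-activated sorting. The GFP group carried AAV9-cTNT-GFP and the dnMKL1 group AAV9-cTNT-dnMKL1-GFP, so that the cardiac troponin T promoter drove both vectors in cardiomyocytes. dnMKL1 is a dominant-negative form of MKL1, a coactivator of serum response factor, and the comparison asks which transcripts it changes. Because the series was read as a table of the group comparison, no value of a single library can be shown. Group means were derived from the deposited base mean and fold change and are called implied means, in counts normalized by the authors' size factors.

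The V-ATPase is a rotary machine. Its V1 sector, on the cytosolic side, splits ATP, and the turning stalk drives protons through the V0 sector in the membrane into the lumen. Acid activates the hydrolases of the lysosome, which break down proteins, lipids, glycogen and worn-out mitochondria. TFEB and TFE3 are transcription factors that bind a shared motif in the promoters of many such genes. The heart depends on this system: inherited loss of Lamp2, Gaa or Gla causes Danon, Pompe or Fabry disease, each of which can damage heart muscle.

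Of the 37 genes, 36 had an adjusted p-value, and 14 of these were higher and 3 lower in the dnMKL1 group at an adjusted p-value under 0.05 in the authors' deposited table. Over all 14056 genes with an adjusted p-value, 34.1% passed that threshold, 16.6% higher and 17.4% lower. Higher calls were therefore 38.9% of the tested lysosomal and pump genes, and lower calls 8.33%. Most of these genes were well expressed. Among the 34 tested ones with a base mean of at least 100 normalized counts, 13 were higher and 3 lower. All 8641 genes that abundant had 43.4% called, 18.4% higher and 24.9% lower. The median log2 fold change, left without Atp6v0c for the reason given below, was 0.13 over 35 tested genes, against 0.021 over all tested genes and -0.029 over those with a base mean of at least 100. The split rests on the authors' scaling between groups. Scaling both groups to equal summed means adds 0.29 to every log2 fold change. After it, 29 of these genes were higher and 2 lower, beside 5685 higher and 927 lower over all genes. That shift comes largely from the most abundant genes. The 140 genes above 10000 summed to 5502688 for GFP and 3639097 for dnMKL1, of 13323393 and 10900088 over all tested genes. From 100 to 1000 normalized counts, the log2 ratio of sums was -0.012. Equal-total scaling thus spreads a fall of few genes over all others.

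Changes were moderate. The called genes ranged between Psap, which fell by 30.5%, and Gla, which rose 2.54-fold. Of the 19 genes that did not pass, 18 had a 95% interval of the log2 fold change, computed from the SE in the authors' deposited table, that lay between -0.5 and 0.5. The exception was Atp6v0c. Summed over the 37 genes, the implied means came to 88878 normalized counts for GFP against 91350 for dnMKL1, which is 0.040 as a log2 ratio. They made up 0.667% of the GFP total and 0.837% of the dnMKL1 total. The total over all genes was itself lower for dnMKL1, with a log2 ratio of -0.29. Most of the rise in share therefore comes from the smaller total.

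**Figure D1:**
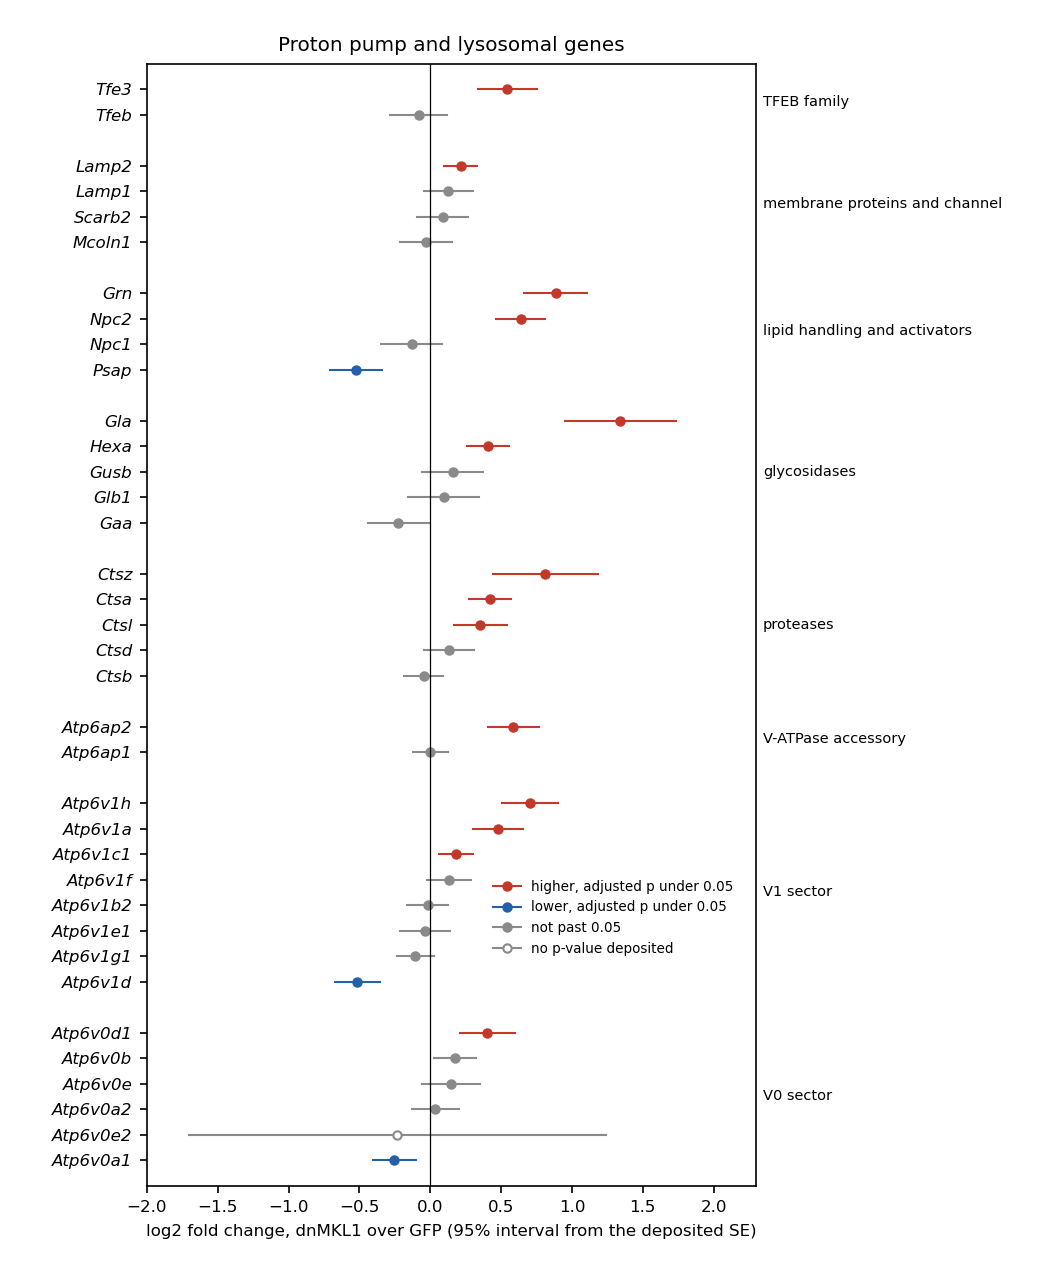
Log2 fold change of dnMKL1 over GFP (x axis) for the members (y axis, by role), with points as deposited and bars as 95% intervals from the deposited SE. Gla stands furthest to the right at 1.34 and Psap furthest to the left of the called genes at -0.52; Atp6v0c is not drawn. Equal-total scaling would move every point right by 0.29, which takes Atp6v0a1, Atp6v0e2, Atp6v1b2, Atp6v1e1, Atp6v1g1, Ctsb, Gaa, Npc1, Mcoln1 and Tfeb above 0.

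Fold changes in this series varied with expression level, so the genes were also read against others of like abundance. From 100 to 1000 normalized counts, 8 of 16 tested lysosomal and pump genes were higher and 0 lower, while all genes of that class had 1303 of 6515 higher and 1257 lower. From 1000 to 10000, 5 of 15 were higher and 2 lower, and the class as a whole had 14.4% higher and 40.1% lower. Only Ctsd, Psap and Ctsb exceeded 10000, where 70.7% of all genes were lower, and of the 3 only Psap was.

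**Figure D2:**
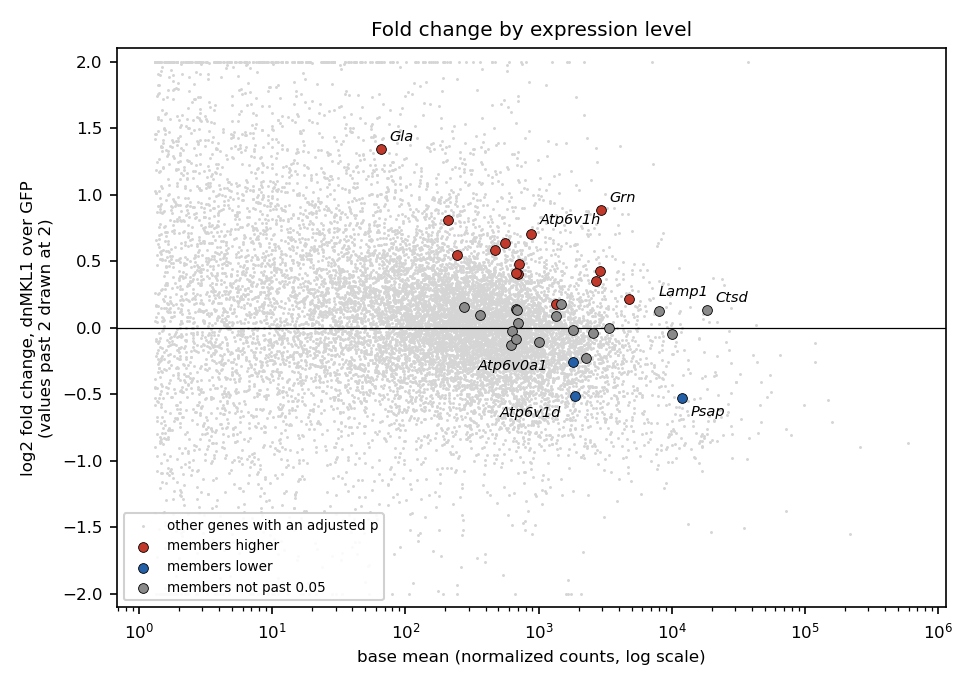
Log2 fold change of dnMKL1 over GFP (y axis, values past 2 drawn at 2) against base mean in normalized counts (x axis, log scale), with grey dots for other genes with an adjusted p-value and large points for members. Members above 1000 normalized counts sit mostly near or above 0, where the cloud of all genes dips below it; equal-total scaling raises members and cloud alike by 0.29.

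In the V1 sector, 3 of 8 subunits rose and 1 fell, with 4 not past the threshold. This count and those by role below stand beside 16.6% higher and 17.4% lower over all tested genes. Atp6v1h, the regulatory subunit that joins ATP splitting to proton flow (chromosome 1, 5070018 to 5162529, GRCm38), had implied means of 669.9 normalized counts for GFP and 1090 for dnMKL1. That is a 1.63-fold rise, with a log2 fold change of 0.70 (SE 0.10) and an adjusted p of 9.0e-11 in the authors' deposited table. Atp6v1a, the catalytic subunit that binds ATP (chromosome 16, 44085402 to 44139705), went from 595.9 to 830.5 normalized counts. The authors' deposited table puts its log2 fold change at 0.48 (SE 0.09, adjusted p = 1.8e-06). Atp6v1c1, which helps to hold V1 on V0, rose by only 13.3%, with a log2 fold change of 0.18 (SE 0.06, adjusted p = 0.013) in the authors' deposited table, and did not pass at 0.01.

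Atp6v1d, part of the central turning stalk (chromosome 12, 78840725 to 78861638), moved the other way. Its implied mean dropped from 2191 to 1534 normalized counts, and the authors' deposited table gave a log2 fold change of -0.51 (SE 0.08, adjusted p = 3.5e-09). Subunits of 1 complex thus passed the threshold in opposite directions. Atp6v1e1 of the peripheral stalks was the most abundant V1 subunit, with implied means of 2604 and 2533 normalized counts and a log2 fold change of -0.040 with a 95% interval from -0.22 to 0.14. Atp6v1b2, which pairs with the catalytic subunit in the ATP-splitting ring, had a log2 fold change of -0.017 and an interval from -0.16 to 0.13. For Atp6v1g1, the partner of Atp6v1e1 in the stalks, it was -0.10 (-0.24 to 0.029), and for Atp6v1f of the central stalk 0.13 (-0.026 to 0.29). These 4 subunits did not pass the threshold, though with equal-total scaling all 4 passed it as higher. In GENCODE M21, 19.2% of the 50-base stretches of the Atp6v1g1 transcript and 18.2% of those of Atp6v1f also occur in other genes. Their counts may therefore hold or lose reads of those genes.

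In the membrane sector V0, 1 subunit rose and 1 fell among 6 with an adjusted p-value, or 16.7% each, near the shares over all tested genes. Without Atp6v0c, which could not be read, it was 20% each of 5. Atp6v0d1, which caps the proton-carrying ring (chromosome 8, 105524465 to 105566047), rose from 606.7 to 801.8 normalized counts, and the authors' deposited table gave a log2 fold change of 0.40 (SE 0.10, adjusted p = 3.1e-04). Atp6v0a1, one of the isoforms of the subunit that guides protons to the ring, had the highest V0 base mean before correction for length and fell by 16.2% from 1983 to 1663 normalized counts. The log2 fold change listed for it in the authors' deposited table is -0.25 (SE 0.08, adjusted p = 0.0045), and equal-total scaling turned it to 0.034, no longer past the threshold (adjusted p = 0.751). Its paralog Atp6v0a2 had implied means of 690.2 and 707.9 normalized counts and a log2 fold change of 0.036, with an interval from -0.13 to 0.20. Atp6v0b, a proton-carrying ring subunit, just missed the threshold with a log2 fold change of 0.18 (SE 0.08, adjusted p = 0.053) in the authors' deposited table. Atp6v0e, a small membrane subunit, had a log2 fold change of 0.14 with an interval from -0.060 to 0.35.

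A pair of V0 genes could not be read. Atp6v0c, the main proton-carrying ring subunit, had implied means of 1.14 and 1.94 normalized counts, both under 3, so no fold change is given. It is the lowest of the 37 genes. In GENCODE M21, 32.5% of the 50-base stretches of its transcript also occur in the processed pseudogenes Atp6v0c-ps1 and Atp6v0c-ps2, and the authors' deposited table lists Atp6v0c-ps2 at 0. Whether reads were lost to such copies was not tested. Atp6v0e2, a paralog of Atp6v0e, is 1 of 8 genes in the authors' deposited table with a fold change and no p-value. Its log2 fold change there was -0.23 with an SE of 0.75, and 535 genes within 1.1-fold of its base mean had a median SE of 0.138. Of those genes, 1 had a larger SE. DESeq2, whose columns the table has, leaves a p-value empty where the count of a single library is extreme, and whether that happened here was not tested.

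Both accessory proteins help the pump to assemble and travel. Atp6ap2, also known as the prorenin receptor (chromosome X, 12587801 to 12617049), rose by 50.2% from 376.9 to 566.0 normalized counts, with a log2 fold change of 0.59 (SE 0.09, adjusted p = 2.8e-09) in the authors' deposited table. Atp6ap1 stood at 3378 and 3382 normalized counts, and the interval of its log2 fold change of 0.0017 ran from -0.12 to 0.13. Over the 17 pump genes, the implied means summed to 20116 normalized counts for GFP and 20484 for dnMKL1.

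Levels of different subunits were compared per kb of transcript, using for each gene the longest coding transcript that GENCODE pairs with a RefSeq mRNA. By the base mean on this scale, Atp6v1e1 led the pump with 1957 normalized counts per kb, ahead of Atp6ap1 with 1544 and Atp6v0b with 1479. The catalytic subunit Atp6v1a had 168 and its ring partner Atp6v1b2 had 639. Atp6v0a1 exceeded its paralog Atp6v0a2, with 455 against 131 normalized counts per kb. The lysosomal genes were led by Ctsd with 8687, Psap with 4509 and Lamp1 with 3581 normalized counts per kb. Gla, the member with the largest rise, was the lowest after Atp6v0c, at 20.8. These levels have no spread over libraries, and neighbours such as Atp6v1b2 and Atp6v1c1 (652) are not told apart.

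**Figure D3:**
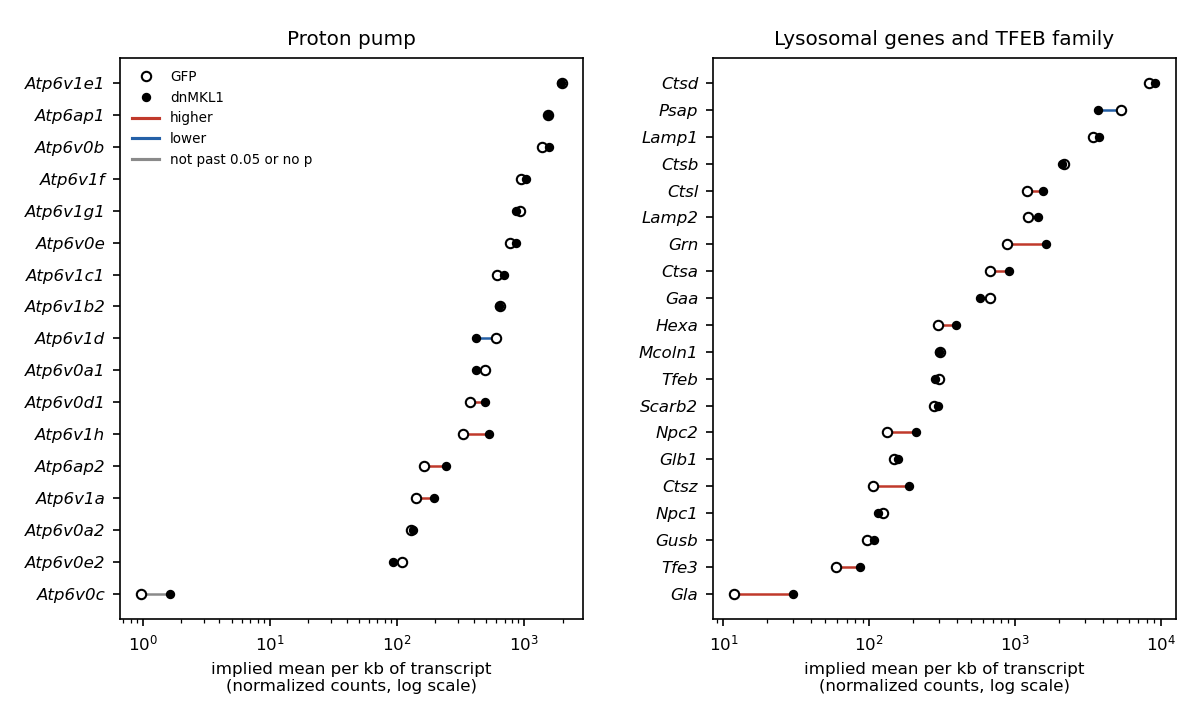
Implied mean per kb of transcript in normalized counts (x axis, log scale) for pump genes (left) and lysosomal and TFEB family genes (right), sorted by base mean per kb, with open circles for GFP, filled circles for dnMKL1 and the joining line coloured by the call. Shifts between groups are small beside the range of levels, which for lysosomal genes spans from 20.8 for Gla to 8687 for Ctsd in base mean per kb.

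Among the proteases, 3 of 5 rose and 0 fell. Ctsz, a carboxypeptidase (chromosome 2, 174427493 to 174439039), rose 1.76-fold from 152.4 to 267.7 normalized counts, and the authors' deposited table gave a log2 fold change of 0.81 (SE 0.19, adjusted p = 1.4e-04). Ctsa, which also protects other hydrolases in a complex, had a log2 fold change of 0.42 (SE 0.08, adjusted p = 3.6e-07) in the authors' deposited table and implied means of 2470 and 3315. For Ctsl, an endopeptidase, the authors' deposited table listed 0.35 (SE 0.09, adjusted p = 9.9e-04) on the log2 scale, with implied means of 2384 and 3048. The most abundant proteases did not pass. Ctsd, the aspartic protease with implied means of 17628 and 19326 normalized counts, had a log2 fold change of 0.13 and an interval from -0.043 to 0.31. Ctsb, a cysteine protease at 10256 and 9927, had -0.047 and an interval from -0.19 to 0.092. Exons of other genes cover 34.4% of the exon bases of Ctsd on its own strand, and on the opposite strand 17.4% for Ctsa, 26.8% for Ctsl and 12.8% each for Ctsb and the glycosidase gene Hexa, so their counts may hold or lose reads of neighbours.

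Of the glycosidases, 2 of 5 rose and 0 fell. Gla, alpha-galactosidase A, whose loss causes Fabry disease (chromosome X, 134588149 to 134601125), had implied means of 37.4 normalized counts for GFP and 94.9 for dnMKL1. The authors' deposited table gave it the largest log2 fold change of the 37 genes that could be read, 1.34 (SE 0.20, adjusted p = 4.9e-10). Its SE was close to the median of 0.207 over 321 genes within 1.1-fold of its base mean. Hexa, a subunit of beta-hexosaminidase, went from 587.3 to 779.2 normalized counts, with a log2 fold change of 0.41 (SE 0.08, adjusted p = 1.3e-06) in the authors' deposited table. Gaa, which breaks down glycogen and is lost in Pompe disease, was the most abundant of them at 2446 and 2092 normalized counts. Its log2 fold change of -0.23 (SE 0.11, adjusted p = 0.101) in the authors' deposited table missed the threshold and had an unadjusted p of 0.040. Glb1, a beta-galactosidase, and Gusb, a beta-glucuronidase, had log2 fold changes of 0.095 (-0.15 to 0.34) and 0.16 (-0.056 to 0.37).

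The proteins of lipid handling and the activators held both the smallest adjusted p-value and the largest fall of the 37 genes. Grn, the progranulin precursor of lysosomal granulins (chromosome 11, 102430315 to 102437048), rose 1.85-fold from 2061 to 3806 normalized counts, with a log2 fold change of 0.88 (SE 0.11, adjusted p = 4.5e-13) in the authors' deposited table. Npc2, which hands cholesterol to Npc1 for export from the lysosome (chromosome 12, 84754562 to 84773152), rose 1.56-fold, from 439.6 to 684.5 normalized counts. In the authors' deposited table it has a log2 fold change of 0.64 (SE 0.09, adjusted p = 1.4e-11). Npc1 itself had implied means of 650.8 and 594.8 normalized counts and a log2 fold change of -0.13, with an interval from -0.35 to 0.086. Psap, the precursor of the saposins that present sphingolipids to hydrolases (chromosome 10, 60277627 to 60302597), fell by 30.5% from 14135 to 9825 normalized counts. The authors' deposited table gave a log2 fold change of -0.52 (SE 0.10, adjusted p = 4.9e-07), and with equal-total scaling it was still lower (-0.24). Psap is a known partner of progranulin in transport to the lysosome, and here their transcripts changed in opposite directions.

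In the lysosomal membrane, 1 of 4 genes rose. Lamp2, whose loss causes Danon disease (chromosome X, 38401357 to 38456454), went from 4435 to 5144 normalized counts, a rise of 16.0%, with a log2 fold change of 0.21 (SE 0.06, adjusted p = 0.0021) in the authors' deposited table. Lamp1, the more abundant membrane glycoprotein at 7627 and 8336 normalized counts, had a log2 fold change of 0.13 with an interval from -0.047 to 0.30. For Scarb2, a membrane protein that carries hydrolase cargo to the lysosome, it was 0.087 (-0.093 to 0.27), and for the calcium channel Mcoln1 -0.028 (-0.21 to 0.16).

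Of the TFEB family, 1 of 2 genes rose. Tfe3 (chromosome X, 7762560 to 7775202) rose 1.46-fold from 199.6 to 290.9 normalized counts, and the authors' deposited table gave a log2 fold change of 0.54 (SE 0.11, adjusted p = 4.1e-06). Tfeb, with implied means of 699.0 and 660.3 normalized counts, had a log2 fold change of -0.082 with an interval from -0.28 to 0.12. These factors act largely through their entry into the nucleus, which RNA does not show. Of other factors of the family, Mitf fell, with a log2 fold change of -0.50 (SE 0.15, adjusted p = 0.0034) in the authors' deposited table, a call lost with equal-total scaling (-0.21). Tfec had under 1 normalized count in base mean (0.113).

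Promoters were searched for the motif that these factors bind. RefSeq promoters on GRCm38.p6, from 250 bases before to 50 after the start, were matched by symbol for 30 of the 37 genes, leaving Atp6v0a2, Atp6v1b2, Atp6v1c1, Atp6v1g1, Atp6v1h, Ctsb and Npc1. For 24 of the 30, bases after the start were found in a GENCODE transcript of the gene, so the starts of the rest are less certain. The E-box CACGTG, which reads the same on both strands, was found in 12 of 30 and in 8.09% of 27025 genes with a promoter. Its longer form TCACGTGA, the core of the CLEAR motif and always counted as an E-box too, was found in 7 of 30, or 23.3%, against 1.12% of all. TFEB family factors are known to bind this motif in promoters of many lysosomal genes, so its share here is not a finding of this series. Those 27025 genes include many without an adjusted p-value here. Among the 9934 tested genes with a promoter, a set nearer to these well expressed genes, 1155 held the E-box and 210 the longer form. The 7 genes are shown as windows of up to 30 bases, 5′ to 3′ on the gene's strand, with the longer form in capitals. Ctsa and Gla hold it at 2 places each.

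Gla, chrX:134601215-134601244, from 228 bases before the start, minus strand: taagcgattgaTCACGTGAgcatctacgtc
Gla, chrX:134601182-134601211, from 195 bases before the start, minus strand: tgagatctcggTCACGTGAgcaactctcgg
Ctsa, chr2:164833749-164833778, from 13 bases before the start, plus strand: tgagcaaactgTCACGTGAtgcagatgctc
Ctsa, chr2:164833766-164833795, from base 5 after the start, plus strand: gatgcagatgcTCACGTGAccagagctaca
Atp6v1a, chr16:44139373-44139402, from 132 bases before the start, minus strand: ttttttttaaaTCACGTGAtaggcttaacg
Atp6v0d1, chr8:105566050-105566079, across the start, minus strand: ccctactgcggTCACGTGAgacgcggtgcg
Mcoln1, chr8:3500462-3500491, from 46 bases before the start, plus strand: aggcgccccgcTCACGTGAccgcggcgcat
Ctsd, chr7:142387908-142387937, from 99 bases before the start, minus strand: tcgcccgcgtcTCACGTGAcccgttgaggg
Atp6v0e, chr17:26676387-26676416, from base 3 after the start, plus strand: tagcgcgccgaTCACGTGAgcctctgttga

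Of the 7 genes with the longer form, Gla, Ctsa, Atp6v1a and Atp6v0d1 rose, while Ctsd, Mcoln1 and Atp6v0e did not pass and 0 fell. The other 23 promoters belonged to 22 genes with an adjusted p-value, of which 8 were higher, 3 lower and 11 not past. Median log2 fold changes were 0.40 with the longer form and 0.14 without it. With the shorter E-box, 5 of 12 tested genes were higher and 0 lower, with a median of 0.16. Without it 7 of 17 were higher and 3 lower, also with a median of 0.16. Both classes without a motif include Atp6v0c, which could not be read and lies above their medians, so leaving it out would lower them. Over all tested genes in the authors' deposited table, 210 had the longer form in their promoter, and 21.9% of these were higher and 16.7% lower, beside 17.1% and 18.0% of the 9934 tested genes with a promoter. Atp6v0a1, Atp6v1d and Psap, the genes that fell, hold neither form in these windows. A match in a window is a description of its letters, and no difference between these classes was tested.

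Wider lists show how far the rest of the pathway moved, again by an adjusted p-value under 0.05 in the authors' deposited table. Over all 14056 tested genes, 16.6% were higher and 17.4% lower, and with equal-total scaling 5685 were higher and 927 lower. Of 34 tested hydrolases besides those above, 13 rose and 6 fell, with a median of -0.0053 over the tested genes. Among the rises in the authors' deposited table, Ctso, a cathepsin gene, had a log2 fold change of 1.35 (SE 0.20, adjusted p = 2.9e-10) and Arsa, an arylsulfatase gene, 1.09 (SE 0.17, adjusted p = 9.6e-09). Among those that fell in the authors' deposited table were the cathepsin genes Ctsh at -0.95 (SE 0.15) and Ctsc at -0.85 (SE 0.22), and the thioesterase gene Ppt2 at -0.42 (SE 0.11). Equal-total scaling left 22 hydrolases higher and 2 lower, and Ppt2 then did not pass.

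Membrane proteins and sorting factors formed the next lists. Of 17 tested membrane proteins, 6 rose and 2 fell. The rises with the smallest adjusted p-values, which are not all the largest rises, are named from the authors' deposited table. They had log2 fold changes of 0.99 (SE 0.19) for the nucleoside transporter Slc29a3, 0.45 (SE 0.09) for the chloride transporter subunit Ostm1 and 0.34 (SE 0.09) for the ion channel Tmem175. The lower ones were Laptm4a and Mfsd8, at -0.13 (SE 0.04) and -0.27 (SE 0.10) in the authors' deposited table, and both turned positive with equal-total scaling. Of 10 genes that tag and carry hydrolases, 3 rose and 0 fell. In the authors' deposited table, Sumf1, which activates sulfatases, stands at 0.55 (SE 0.09) on the log2 scale, Gnptg, a subunit of the enzyme that makes the mannose phosphate tag, at 0.53 (SE 0.13), and M6pr, a receptor of that tag, at 0.17 (SE 0.07).

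The list of nutrient sensing at the lysosome covers mTORC1, which signals growth from the lysosomal surface, and its anchors and regulators. None of its 18 tested genes rose and 6 fell, with a median of -0.17 beside 0.021 over all tested genes. Equal-total scaling gave 4 higher and 0 lower and a median of 0.11, beside 0.31 over all tested genes. The direction thus rests on the scaling. Because that scaling adds the same amount to every gene, it cannot change how far the list median lies under that of all tested genes. That distance was also not matched for abundance. Medians over all genes differed by level, with 0.0076 between 100 and 1000 normalized counts and -0.13 between 1000 and 10000. Whether this list differs from genes of like abundance was not tested. The smallest p-values belonged to Lamtor3, an anchor, at -0.50 (SE 0.13), Tsc1, an inhibitor, at -0.37 (SE 0.11), and Fnip1, a partner of folliculin, at -0.40 (SE 0.13) in the authors' deposited table. In fusion and movement of lysosomes, 4 of 16 tested genes rose and 3 fell. Arl8a and Arl8b, paralogs that link lysosomes to microtubule motors, went opposite ways, with log2 fold changes of 0.85 (SE 0.14) and -0.25 (SE 0.06) in the authors' deposited table, the latter turning to 0.038 with equal-total scaling. The others named by the rule, from the authors' deposited table, were Vamp8 at 0.51 (SE 0.07) and Vps16 at 0.40 (SE 0.09), which rose, and Snapin at -0.33 (SE 0.10) and Rab7 at -0.17 (SE 0.07), which fell. With equal-total scaling Snapin no longer passed and Rab7 turned positive.

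Few other pump genes were seen. Of 8 alternative isoforms, 3 were listed at 0 and only Tcirg1 and Atp6v1g2 had an adjusted p-value. Atp6v1g2, an isoform best known from neurons, rose from 89.6 to 133 normalized counts, with a log2 fold change of 0.57 (SE 0.13, adjusted p = 5.8e-05) in the authors' deposited table. Of 8 genes of pump assembly, 0 rose and 1 fell, Tmem199 at -0.28 (SE 0.10) in the authors' deposited table, while equal-total scaling gave 2 higher and 0 lower.

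**Figure D4:**
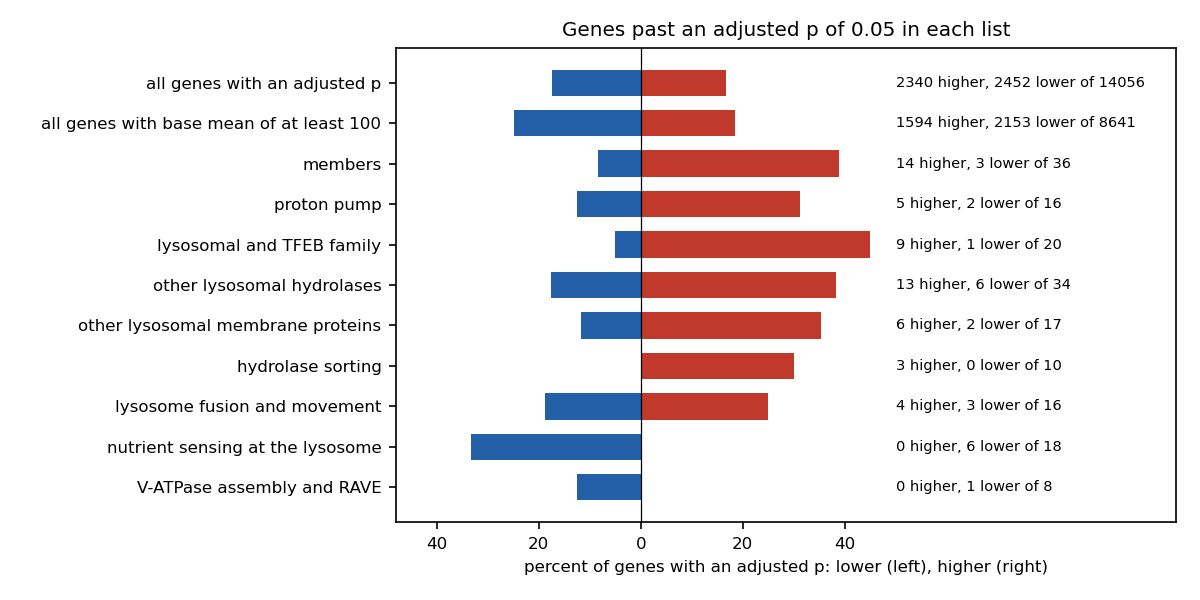
Percent of genes with an adjusted p-value that were higher (right, red) or lower (left, blue) at an adjusted p-value under 0.05 (x axis) in each list and over all genes (y axis), with the counts at the right. Members show 38.9% higher and 8.33% lower, and nutrient sensing genes 0 higher and 6 lower. With equal-total scaling nutrient sensing genes become 4 higher and 0 lower, and pump assembly genes 2 higher and 0 lower, beside 5685 higher and 927 lower over all genes.

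Several measures of the whole series bear on these values. Mkl1, from which the vector's product derives, had implied means of 83.9 and 74899 normalized counts, which sets the direction of all fold changes. Estimated totals ran from 8803005 to 17228537 counts per library. The sorted cells expressed cardiomyocyte markers at high levels, with Myh6 at a base mean of 594986 normalized counts in the authors' deposited table. Of 8 such markers, 5 (Myh6, Tnnt2, Tnni3, Ttn and Ryr2), or 62.5%, were lower in the dnMKL1 group and 0 higher. All 8 had a base mean above 10000, where 70.7% of all 140 genes were lower. Those 140 genes include the 8 markers, so the comparison cannot show whether the markers differ from other cardiomyocyte RNA. In pooled cells, fewer cells of a type and less RNA per cell cannot be told apart. Macrophages, which are rich in lysosomes, were followed by 12 markers, 0 of them listed at 0, with implied means that summed to 183 normalized counts for GFP and 152 for dnMKL1. Of 11 with an adjusted p-value 0 passed in the authors' deposited table, 1 of the 12 had an unadjusted p under 0.05, and Lyz2, with the highest base mean, had a log2 fold change of -0.55 (SE 0.26, adjusted p = 0.085). Cd68, a lysosomal protein of macrophages that was not on that list and is named after its value was seen, had implied means of 9.47 and 19.4 and a log2 fold change of 1.03 (SE 0.39, adjusted p = 0.028) in the authors' deposited table. Of 10 fibroblast markers, 0 were listed at 0. In the dnMKL1 group 3 of them (Col1a1, Col1a2 and Col3a1, with the highest base mean), or 30%, were higher and 0 lower. Over all tested genes 16.6% were higher and 17.4% lower. The other 7 fibroblast markers did not pass, though all 10 log2 fold changes were positive, with a median of 0.35. The summed implied means of the 10 were 3604 and 4983 normalized counts. Most of that rise lay in the collagen genes, with 420 and 670 for Col1a1, 360 and 560 for Col1a2 and 1937 and 2625 for Col3a1. For 9 endothelial markers the sums were 3689 and 3717, with 0 listed at 0, 0 past the threshold in the authors' DESeq2 table, 0 at an unadjusted p under 0.05, and Kdr, with the highest base mean, at a log2 fold change of 0.097 (SE 0.29). The part of fibroblast RNA, and of the fall in cardiomyocyte markers, in the changes above was not tested.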

How the data were processed

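RNA of sorted cells was sequenced from 5 GFP and 5 dnMKL1 libraries. Per the labels, 10 ng of RNA was copied with a SMART-Seq kit over 8 PCR cycles and 500 pg of cDNA entered Nextera XT. Per the submitters' processing notes, the tools were CASAVA 1.8, STAR 2.5.3a and featureCounts of Subread 1.5.2 on mm10, the assembly of GRCm38. The annotation, the use of strand and the treatment of reads with several matches are not given in the sources used here, so values of genes with overlapping or near-identical partners are uncertain.

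What the authors deposited is 1 comparison whose column names, per the file headers, are those DESeq2 writes. Its base mean is a signal: counts divided by size factors, averaged by the authors over all libraries. The fold change and its SE were deposited in log2 units, and their quotient, the Wald statistic, was deposited as a score. From it, the deposited p-value and adjusted p-value (Benjamini-Hochberg, recomputed with a largest gap of 1.4e-07) were derived. The adjustment covered 14056 genes. Positive values mean higher in dnMKL1 libraries, read from Mkl1.

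From these, implied group means, 95% normal intervals and counts of calls at an adjusted p-value under 0.05 were computed (Python 3.11.15, pandas 2.3.3, SciPy 1.17.1, NumPy 2.4.6), with the alternatives described in the closing section. Library totals were estimated from size factors recovered from genes with 1 read in 1 library. Replicate spread enters only through the deposited SE. Positions, transcripts and overlaps come from GENCODE M21, promoters from RefSeq; 4 list genes were found under older symbols (Lamtor1, Lamtor4, Lamtor5 and Adgre1). All members are named. From each wider list, at most 3 genes per direction with the smallest adjusted p-value are named, and from each marker list the most abundant and those past 0.05; 1 gene so chosen is not reported here. The members and lists were chosen with earlier results of these data known. Reads carry no molecular identifiers.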

Additional observations from a re-analysis of the deposited data

How the results depend on the processing

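No paired analysis was possible because the table holds 1 comparison of groups and no column per library. Fits that leave out 1 library and count tests with other tools could not be run either, so whether 1 library decides a value is unknown. Adjustment over every gene with a p-value, a base mean of at least 10 and median-centring kept every count named here within 1.5 times, and median-centring turned only Atp6ap1 (-0.0024). An adjusted p-value under 0.01 left 16 members, without Atp6v1c1, and 3549 genes; it moved membrane proteins of the wider list from 8 to 4 and pump assembly from 1 to 0. A base mean of at least 100 took glycosidases from 2 to 1, as Gla is below it. Atp6v0b passed as higher with a base mean of at least 10 or of at least 100, which took V0 from 2 to 3. At a base mean of at least 10, members called higher went from 14 to 15. Leaving out 13 members that share over 5% of sequence or exons with other genes gave 11 higher and 3 lower of 24. This choice was made after seeing the data. The median was 0.15, and both the 24 and the median include Atp6v0e2, which has no p-value.

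Equal-total scaling, whose whole effect is the shift of 0.29, gave 31 members (29 higher, 2 lower), beside 5685 genes higher and 927 lower. By role the calls went to 4 in V0, 8 in V1, 2 accessory, 5 proteases, 4 glycosidases and 4 membrane proteins, and in wider lists to 2 isoforms, 2 assembly, 13 membrane, 7 sorting and 0 MiT genes. Medians became 0.42 over members, 0.43 for V0, 0.34 for V1, 0.58 for accessory proteins and 0.64 for proteases. They were 0.45 for glycosidases, 0.54 for lipid handling, 0.40 for membrane proteins and 0.52 for the TFEB family. Atp6v0c and Atp6v0e2, which could not be read, are included in the medians over members and for V0. Signs turned for Atp6v0a1 (0.034), Atp6v0e2 (0.056), Atp6v1b2 (0.27), Atp6v1e1 (0.25), Atp6v1g1 (0.18), Ctsb (0.24), Gaa (0.063), Npc1 (0.16), Mcoln1 (0.26), Tfeb (0.21), Tmem199 (0.010), Laptm4a (0.16), Mfsd8 (0.014), Arl8b (0.038) and Rab7 (0.11). Asking also for a log2 fold change of at least 0.5 in size left 9 members (7 higher) and 2735 genes (1489 higher, 1246 lower): 0 in V0, 2 in V1, 1 protease, 1 glycosidase and 0 membrane proteins, and in wider lists 0 assembly, 12 hydrolase, 2 membrane, 1 nutrient, 0 MiT and 2 fusion genes. Fewer genes can pass there by construction.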
